A study of Setaria viridis with 23 samples.

Results

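The comparison described here sets the 4 libraries of 15 days after sowing (DAS) against the 4 libraries of 14 DAS, 8 of the 23 RNA-seq libraries of the series, over all genes of the deposited table. The libraries were chosen by their stage labels alone. All are polyA RNA of hand-dissected inflorescence primordia of Setaria viridis accession A10.1, the reference genotype of this small C4 grass, with no treatment, and each library is a pool of primordia from several plants, so that differences between plants were averaged before sequencing. At 14 DAS the primordium was still adding higher-order branches, and at 15 DAS it had stopped doing so and the meristems at its tip were starting to turn into spikelets or bristles. The libraries of 10, 12 and 14 DAS were read as read 1 of a paired-end run and those of 15, 16 and 18 DAS in a single-end run, both at 100 bp, so that the sequencing run changes at the step examined here. Run and stage cannot be told apart between 14 and 15 DAS. For each gene it is therefore stated whether it also changed in the same direction from 12 to 14 DAS, within the paired-end run, or from 15 to 16 DAS, within the single-end run, and a change is described as developmental only where it did.

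A grass inflorescence is built by a succession of meristems. The inflorescence meristem makes branch meristems on its flanks, these make further branches, and they later become spikelet meristems, which are determinate and give rise to floral meristems and floral organs. In S. viridis some branches end as sterile bristles in place of spikelets. The regulators that mark each phase are mostly transcription factors, with auxin synthesis, transport and response setting where new meristems and their boundaries form.

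Of 35214 genes in the table, 21180 had enough counts to be tested, and expression is given as CPM, counts relative to the total of the library after scaling by the trimmed mean of M values (TMM). A gene is called where the edgeR quasi-likelihood test gave a Benjamini-Hochberg adjusted p under 0.05 over all genes tested, and all adjusted p-values below come from that test. Between 14 and 15 DAS 11938 genes were called, which is 56.4% of those tested: 6223 were higher at 15 DAS (29.4%) and 5715 were lower (27%). A difference over 2-fold was called for 2486 higher genes (11.7%) and 944 lower genes (4.46%). The CPM ranges of the 4 and 4 libraries did not overlap for 9271 genes (43.8%). The median absolute log2 difference over all genes was 0.439, against 0.162 from 12 to 14 DAS and 0.275 from 15 to 16 DAS.

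Few of these changes had a counterpart within a run. From 12 to 14 DAS 5.27% of genes were called, 490 higher (2.31%) and 626 lower (2.96%), and from 15 to 16 DAS 2919 were called higher (13.8%) and 3143 lower (14.8%). Of the 6223 genes higher at 15 than at 14 DAS, 172 (2.76%) had also risen from 12 to 14 DAS, 133 (2.14%) also rose from 15 to 16 DAS, and 286 (4.6%) did either. Of the 5715 lower genes, 177 (3.1%) had also fallen from 12 to 14 DAS, 61 (1.07%) also fell from 15 to 16 DAS, and 227 (3.97%) did either. The shares from 12 to 14 DAS were near the 2.31% and 2.96% of all genes. Those from 15 to 16 DAS were below the 13.8% and 14.8% of all genes. The 513 genes that moved the same way within a run were 2.42% of the genes tested, 1.35% higher and 1.07% lower. A move in all 3 steps in the same direction was called for 19 rising and 11 falling genes. Each step within a run shares 4 libraries with the comparison of 15 with 14 DAS, and a shared library enters the 2 differences with opposite signs.

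An opposite call at 16 DAS was much more frequent than a call in the same direction. Both differences hold the same libraries of 15 DAS with opposite signs, which favors opposite calls in advance, so no conclusion on a return is drawn. Of the genes higher at 15 DAS, 2321 (37.3%) were called lower at 16 than at 15 DAS, with 14.8% of all genes. Of the lower genes 1988 (34.8%) were called higher again, with 13.8% of all genes. Another 3542 higher genes (56.9%) and 3466 lower genes (60.6%) were called in neither step within a run. Among the genes changed over 2-fold, 95 of 2486 higher genes and 78 of 944 lower genes moved the same way within a run. With each of 15 libraries of 12, 14, 15 and 16 DAS left out in turn, between 359 and 596 genes moved the same way, and 161 of the 513 did so every time. With support taken from 10 to 12 DAS (14.4% of genes called, 6.61% higher and 7.75% lower) or 16 to 18 DAS (36.5% called, 20.2% higher and 16.3% lower), steps that share no library with the comparison, 3032 of the 11938 genes moved the same way in at least 1 of them.

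**Figure D1:**
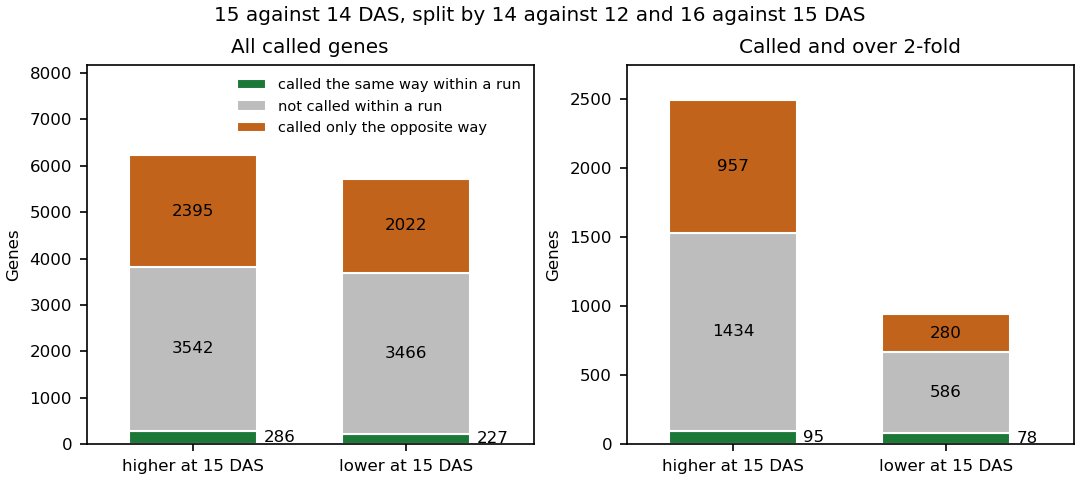
Number of genes called at 15 against 14 DAS (y axis, genes), higher and lower at 15 DAS, for all called genes (left) and for those over 2-fold (right), with each bar split by the calls at 14 against 12 and 16 against 15 DAS. Called the same way in either step: 286 of 6223 higher and 227 of 5715 lower genes, and 95 of 2486 and 78 of 944 over 2-fold.

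The libraries of the 2 stages also differed in other respects. Totals were 16026216 to 19244179 counts at 14 DAS and 7630744 to 15543160 at 15 DAS, with replicates 1 and 2 of 15 DAS the shallowest of the series. At an equal depth of 7630728 counts, 22893 to 23089 genes were detected in the 14 DAS libraries, 23827 to 23956 in those of 15 DAS and 23231 to 23361 in those of 16 DAS, with no overlap between these 3 stages. The median correlation of log2(CPM + 1) between libraries of 14 and 15 DAS was 0.954 (16 pairs), below the 0.975 between 14 and 16 DAS (16 pairs), and within 15 DAS it was 0.984 (6 pairs, lowest 0.957) against 0.993 within 14 DAS. Replicates 3 and 4 of 15 DAS had median correlations of 0.942 and 0.937 with the 14 DAS libraries, and replicates 1 and 2 had 0.969 and 0.972. Leaf photosynthesis genes, fixed as markers of leaf tissue that dissection might leave, were higher at 15 DAS for 3 of 6 and lower for none, beside 29.4% of all genes higher. The clearest rises were Sevir.9G418400 (5.68 to 22.3 CPM) and Sevir.3G348100 (12.5 to 29.8 CPM), both called lower again at 16 DAS. Rubisco small subunit and activase had means of 0.239 and 0.381 CPM at 14 DAS and 1.15 and 0.606 CPM at 15 DAS. Activase was not called, and the small subunit call was lost with DESeq2 (adjusted p = 0.0875). The summed level of all 6 ranged from 183 to 242 CPM at 14 DAS and from 209 to 344 CPM at 15 DAS. Most of it came from the PEP carboxylase gene Sevir.1G020600, which was not called (means of 152 and 163 CPM). The part of these properties in the results was not tested. Genes fixed as inflorescence markers were SvKn1, SvBd1 and SvLfy. SvKn1 was high in both stages, with a mean of 344 CPM (SD 46, n = 4) before the change of run, at 14 DAS, and 353 CPM (SD 44.4, n = 4) after it. SvBd1 had means of 5.32 and 4.25 CPM and was not called, and SvLfy was called lower, from 123 to 86 CPM (adjusted p = 0.00866).

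The direction of change followed the abundance of the gene. Of 2379 genes with a mean under 1 CPM over the 23 libraries, 31.5% were called higher and 6.64% lower at 15 DAS, with a median log2 difference of 0.50. Of 2434 genes with a mean over 100 CPM, 18.1% were called higher and 45.7% lower, with a median of -0.20. From 15 to 16 DAS the order was turned round, with medians of -0.34 and 0.21 for the same genes, and these medians share the 15 DAS libraries. From 12 to 14 DAS the medians were -0.03 and 0.02. Of the 513 genes that moved the same way within a run, 19 had a mean under 1 CPM and 93 a mean over 100 CPM.

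**Figure D2:**
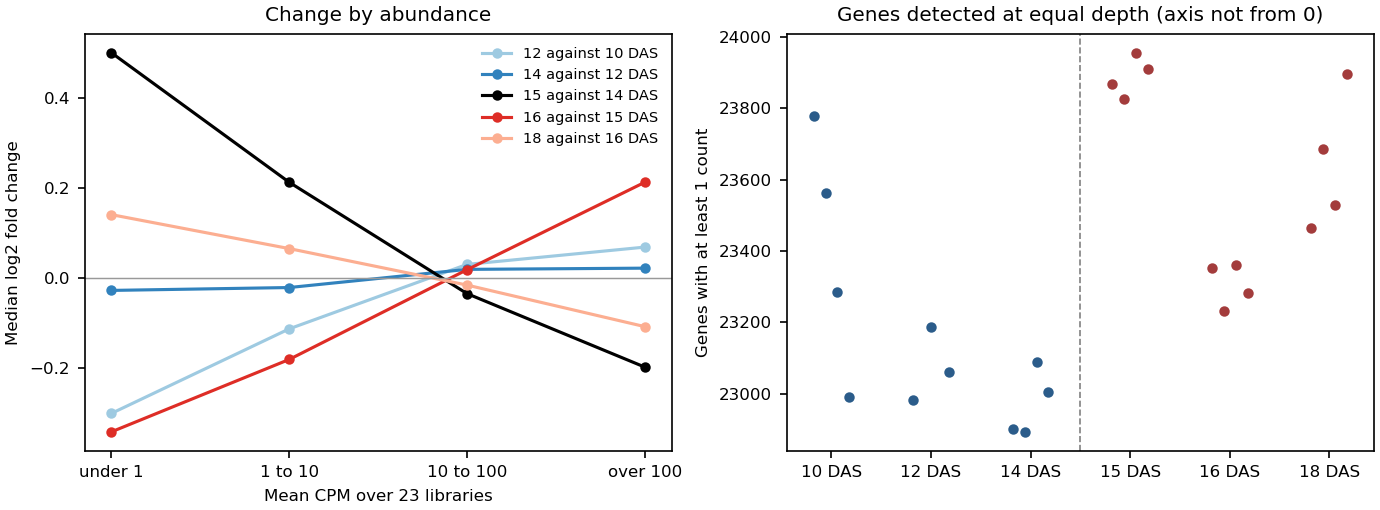
Left: median log2 fold change (y axis) of tested genes grouped by mean CPM over 23 libraries (x axis), one line per step, with 15 against 14 DAS running from 0.50 in the lowest group to -0.20 in the highest. Right: genes with at least 1 count in each library (points) after thinning all libraries to 7630728 counts, by stage, where the 4 libraries of 15 DAS (23827 to 23956) lie above the 4 of 14 DAS (22893 to 23089); the dashed line marks the change of run.

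Among 54 inflorescence regulators that the study names with an identifier, 53 were tested and 36 were called at 15 against 14 DAS (67.9%, with 56.4% of all genes). Of these, 13 moved the same way within a run, 24.5% of those tested with 2.42% of all genes. Over all genes tested 29.4% were higher and 27% lower, and the group counts below are set beside these shares. The study named many of the regulators for how they behave in these same libraries, so their shares are no independent evidence of direction. They are described below in groups that largely follow the study's expression groups of these same libraries, each headed by its main role. Directions within and between groups thus partly reflect that grouping.

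Regulators of the floral transition and of the inflorescence meristem fell, and most of these falls had already begun within the paired-end run. Of 9 tested, 6 were lower at 15 DAS and 1 was higher, all 6 lower ones had also fallen from 12 to 14 DAS, and the median log2 difference was -0.80, beside 0.03 over all genes. SvTfl1-like (Sevir.1G183200) belongs to the TERMINAL FLOWER 1 family, which keeps inflorescence meristems indeterminate. It had 20.2, 18.8, 18.7 and 12.1 CPM in the 4 libraries of 14 DAS and 2.76, 2.44, 1.73 and 1.65 CPM in those of 15 DAS. The groups were far apart, and the log2 fold change was -3.07 (SE 0.26, adjusted p = 1.09e-08). The mean had been 61.3 CPM at 12 DAS (SD 7.25, n = 3), and its fall to the 14 DAS mean of 17.4 CPM (SD 3.64, n = 4) was called with a log2 fold change of -1.81 (SE 0.21, adjusted p = 1.36e-05), and from 15 to 16 DAS the difference of -0.71 was not called (adjusted p = 0.127). No label links the pools of different stages, but same-numbered libraries of 15 and 16 DAS deviated from their stage means together. A paired fit of these stages alone by replicate number, chosen after seeing the data, did call this difference (-0.84, adjusted p = 0.0274). SvTfl1 itself was rare, with 1.23 to 1.86 CPM at 14 DAS and 0.318 to 1.46 CPM at 15 DAS, and the ranges overlapped in replicate 2 of 15 DAS. Its fall at 15 DAS (log2 fold change -1.18, SE 0.47, adjusted p = 0.0372) was lost without replicates 3 or 4 of 14 DAS or replicates 1, 3 or 4 of 15 DAS, where the adjusted p was 0.0705 to 0.0992, and its fall from 12 to 14 DAS was lost without replicates 2 or 4 of 12 DAS or replicates 1 or 2 of 14 DAS (adjusted p up to 0.11).

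The 2 ALOG genes of this group, relatives of rice TAWAWA1 that delays the passage of branch meristems to spikelet fate, fell together. SvTaw1 (Sevir.9G221800) had 30.6, 25.6, 28.6 and 16.6 CPM at 14 DAS and 13.8, 12.8, 7.58 and 9.55 CPM at 15 DAS. Every library of 14 DAS lay above every library of 15 DAS, with a log2 fold change of -1.24 (SE 0.26, adjusted p = 3.11e-04) after -1.48 (SE 0.25, adjusted p = 8.08e-04) from 12 to 14 DAS. SvTaw1-like-2 (Sevir.1G244200) was 1 of 2 regulators called lower in all 3 steps: its log2 fold change was -1.26 (adjusted p = 1.15e-04) from 12 to 14 DAS, -0.80 (SE 0.18, adjusted p = 7.39e-04) from 14 to 15 DAS and -0.88 (adjusted p = 0.00263) from 15 to 16 DAS. The other was the homolog of rice OsMADS22 (Sevir.1G335300), an SVP-like MADS-box gene of the vegetative and early inflorescence phase, with 156, 128, 138 and 121 CPM at 14 DAS and 101, 95.6, 77.9 and 86.8 CPM at 15 DAS. Its 3 log2 fold changes in order were -0.84, -0.59 and -0.50 (adjusted p = 2.40e-05, 3.40e-05 and 0.00116).

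The other SVP-like genes fell on either side of the step but were not called at it. The homolog of OsMADS47 (Sevir.9G518400) had 42.3, 39.5, 56.5 and 52.2 CPM at 14 DAS and 45.6, 40.9, 37.1 and 60.2 CPM at 15 DAS, with the ranges overlapping and a log2 fold change of -0.05 (SE 0.23, adjusted p = 0.869). It fell by 1.43 on the log2 scale from 12 to 14 DAS and by 2.33 from 15 to 16 DAS (adjusted p = 7.66e-04 and 9.03e-06). The homolog of OsMADS55 (Sevir.4G075400) went the same way, with log2 fold changes of -0.84, 0.11 and -0.77 in the 3 steps (adjusted p = 0.00101, 0.524 and 5.06e-04). SvLg2, a bZIP factor related to maize liguleless2, had 18.6 to 22.9 CPM at 14 DAS and 6.32 to 10.2 CPM at 15 DAS (log2 fold change -1.30, SE 0.18, adjusted p = 3.74e-06). Its smaller fall from 12 to 14 DAS (log2 fold change -0.70, adjusted p = 0.0198) was lost without replicates 1 or 2 of 12 DAS or replicates 1, 2 or 4 of 14 DAS, with an adjusted p of up to 0.116. The only gene of the group that was higher at 15 DAS was a further TFL1-like gene, Sevir.7G334800, with 2.51 to 5.39 CPM at 14 DAS and 5.25 to 7.69 CPM at 15 DAS (log2 fold change 0.76, SE 0.23, adjusted p = 0.00738). It fell again by 1.1 on the log2 scale from 15 to 16 DAS (adjusted p = 0.00189), and the ranges of 14 and 15 DAS overlapped.

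All 14 regulators of branch meristem initiation and boundaries were lower at 15 than at 14 DAS, but only 2 of them moved the same way within a run. Most of them belong to an expression group that the study drew from these same libraries and described as decreasing by 15 DAS. Their common fall thus follows in large part from how the list was made. Their median log2 difference was -1.36. From 12 to 14 DAS 2 of the 14 were called lower and 1 higher, and from 15 to 16 DAS none was called lower and 5 were called higher. SvTsh4 (Sevir.2G265300), an SBP-box factor related to maize tassel sheath4 that holds back bract growth and organises branch meristems, was the clearest developmental fall. It had 60.8, 69.4, 75.1 and 57.9 CPM at 14 DAS and 31.9, 32.5, 23.5 and 22.8 CPM at 15 DAS. The libraries of 14 DAS all lay well above those of 15 DAS, with a log2 fold change of -1.26 (SE 0.15, adjusted p = 4.90e-07), and from 12 to 14 DAS the mean had dropped to 65.8 CPM (SD 7.88, n = 4) after 152 CPM (SD 13.1, n = 3), a log2 fold change of -1.21 (SE 0.15, adjusted p = 2.36e-05). At 16 DAS it stood at 26 CPM (SD 4.82, n = 4), and the difference from 15 DAS was not called (adjusted p = 0.718). SvVt2, an enzyme of auxin synthesis from tryptophan, fell from 12 to 14 DAS (log2 fold change -0.62, adjusted p = 0.0269) and from 14 to 15 DAS (-0.98, SE 0.17, adjusted p = 3.32e-05) and rose again at 16 DAS (0.46, adjusted p = 0.0458). Its earlier fall was lost without replicate 1 of 12 DAS or replicates 1, 3 or 4 of 14 DAS, with an adjusted p of up to 0.189.

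For the other 12 branch regulators the fall at 15 DAS had no counterpart within a run. SvLg1 (Sevir.3G023500), the SBP-box homolog of maize liguleless1 that acts at organ boundaries, showed the largest fall of the group and went the opposite way on both sides of it. It had 68.7, 95.9, 67.5 and 59 CPM at 14 DAS and 17.2, 15.1, 11.4 and 15 CPM at 15 DAS, groups that were wide apart (log2 fold change -2.32, SE 0.17, adjusted p = 1.84e-09). It had risen by a log2 fold change of 0.75 (adjusted p = 0.0119) from 12 to 14 DAS and rose by 1.06 (adjusted p = 2.28e-04) to 30.3 ± 2.38 CPM (SD, n = 4) at 16 DAS. SvBaf1 (Sevir.4G025200), an AT-hook protein related to maize barren stalk fastigiate1 that is needed for axillary meristems, had 19.8, 21.9, 15.2 and 12.3 CPM at 14 DAS and 4.56, 5.74, 2.33 and 3.16 CPM at 15 DAS. Its log2 fold change was -2.19 (SE 0.30, adjusted p = 2.59e-06), followed by a rise of 1.30 (adjusted p = 0.00316) to 16 DAS. The groups of 14 and 15 DAS did not overlap, and the 16 DAS mean of 9.32 ± 1.15 CPM (SD, n = 4) lay between them.

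SvPla1, a cytochrome P450 that sets the pace of leaf initiation in rice, had 375 to 568 CPM at 14 DAS and 109 to 193 CPM at 15 DAS. It was back at 245 ± 41.8 CPM (SD, n = 4) at 16 DAS. The fall was called with a log2 fold change of -1.58 (SE 0.23, adjusted p = 5.56e-06) and the rise with 0.68 (adjusted p = 0.026). SvMoc1, a GRAS protein related to rice MONOCULM1, likewise fell by 1.35 on the log2 scale (adjusted p = 3.74e-04) and rose by 0.87 (adjusted p = 0.0292). The remaining 8 branch regulators were called in neither step within a run. They were SvWus, the homolog of the stem cell regulator WUSCHEL (log2 fold change -1.86), SvTsh1, a GATA factor that suppresses bracts (-1.50), the GH3 auxin conjugase Sevir.9G364900 (-1.53), SvBif2, a kinase acting on auxin transport (-1.36), SvRa2, a LOB-domain factor of branch determinacy (-0.94), SvDfl1, a bZIP factor related to maize delayed flowering1 (-0.82), SvLfy, the homolog of LEAFY (-0.51), and SvUb3, an SBP-box factor (-0.40). SvTsh1 was called lower from 15 to 16 DAS as well without replicate 4 of 15 DAS. In the paired fit of 15 and 16 DAS SvDfl1 was called lower (-0.33, adjusted p = 0.0285), and SvRa2 (0.42, adjusted p = 0.00567) and Sevir.9G364900 (0.76, adjusted p = 0.014) were called higher. SvUb3 passed the threshold narrowly, with 106 to 119 CPM at 14 DAS and 60 to 107 CPM at 15 DAS (adjusted p = 0.0245). Its call was lost without replicate 3 of 14 DAS or replicates 3 or 4 of 15 DAS, where the adjusted p was 0.0523 to 0.107.

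**Figure D3:**
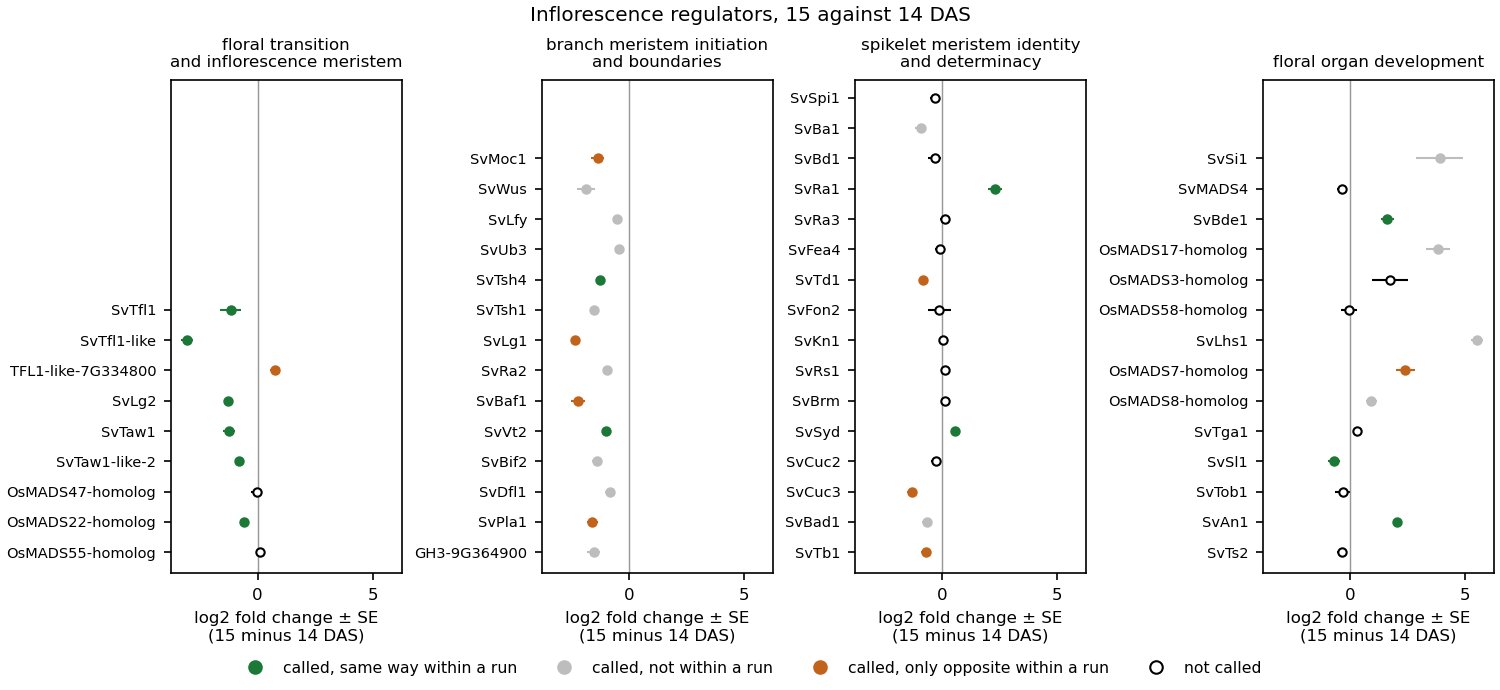
Log2 fold change ± SE at 15 against 14 DAS (x axis) of the 53 tested regulators (y axis) in 4 groups, with filled green points called the same way within a run, grey points called but not within a run, orange points called only the opposite way within a run, and open points not called. All 14 branch regulators lie left of 0, with 2 in green.

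The regulators of spikelet meristem identity and determinacy were divided. Of 16 tested, 2 were higher at 15 DAS, 5 were lower and 9 were not called, with a median log2 difference of -0.19. Both rises had a counterpart within a run. SvRa1 (Sevir.2G209800), a C2H2 zinc finger factor related to maize ramosa1, which makes branch meristems determinate, had 1.11, 1.12, 0.807 and 1.13 CPM at 14 DAS and 3.92, 4.39, 6.21 and 5.91 CPM at 15 DAS. The lowest library of 15 DAS was above the highest of 14 DAS by a wide margin, and the log2 fold change was 2.3 (SE 0.29, adjusted p = 1.48e-06). The gene had no count in any of the 3 libraries of 12 DAS, so that the rise to 1.04 ± 0.159 CPM (SD, n = 4) at 14 DAS (adjusted p = 4.54e-05) was at least 5.59-fold against a floor of 3 counts per library. From 15 to 16 DAS no difference was called (log2 fold change 0.06, adjusted p = 0.954). SvSyd, a SWI/SNF chromatin remodelling ATPase, had 418 to 576 CPM at 14 DAS and 598 to 876 CPM at 15 DAS (log2 fold change 0.56, SE 0.13, adjusted p = 8.51e-04). Its further rise to 16 DAS (0.35, adjusted p = 0.0471) was lost in 8 of the 15 runs that left out a library, those without replicate 4 of 12 DAS, replicates 2 or 4 of 14 DAS, replicates 1 or 2 of 15 DAS or replicates 1, 3 or 4 of 16 DAS, with an adjusted p of up to 0.145. It was also lost with the replicate block (adjusted p = 0.0532), with scaling by library size (0.0948) and with all genes that have a count (0.0692).

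The 5 lower genes had no fall within a run. SvTb1 (Sevir.9G122200), a TCP factor related to maize teosinte branched1 that represses axillary growth, had 49.7, 67.5, 56.4 and 51.3 CPM at 14 DAS and 33.9, 26.6, 36.7 and 38.2 CPM at 15 DAS. The groups did not overlap, and the log2 fold change of -0.72 (SE 0.19, adjusted p = 0.00252) was preceded by a rise of 0.93 (adjusted p = 0.00879) from 12 to 14 DAS and followed by a rise of 0.52 (adjusted p = 0.0435) to 16 DAS, which was lost with the replicate block over all stages (adjusted p = 0.0587). SvCuc3, a NAC factor of organ boundaries, had 70.1 to 98.2 CPM at 14 DAS and 21.4 to 45.7 CPM at 15 DAS (log2 fold change -1.31, SE 0.23, adjusted p = 4.27e-05) and rose by 0.96 (adjusted p = 0.00337) to 16 DAS. SvTd1, a receptor kinase that limits meristem size, fell by 0.83 on the log2 scale (adjusted p = 1.75e-04) and rose by 0.55 (adjusted p = 0.0156). SvBa1, a bHLH factor of axillary meristems, and SvBad1, a TCP factor of branch angle, were lower by 0.93 and 0.66 on the log2 scale (adjusted p = 0.00132 and 0.0064) and were not called in either step within a run.

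The other 9 spikelet regulators were not called at the change of run, and 4 of them had been called higher from 12 to 14 DAS. SvRa3, a trehalose phosphate phosphatase of the ramosa pathway, had 130, 183, 112 and 143 CPM at 14 DAS and 170, 153, 174 and 117 CPM at 15 DAS (log2 fold change 0.11, SE 0.21, adjusted p = 0.664), after a rise of 2.92 (SE 0.26, adjusted p = 2.83e-07) from 12 to 14 DAS. SvBd1 (Sevir.2G437800), an ERF factor that gives spikelet meristems their identity, had 4.03 to 7.22 CPM at 14 DAS and 2.93 to 5.50 CPM at 15 DAS (adjusted p = 0.353), and at 12 DAS only 1 count was found over its 3 libraries. SvRs1 and SvFea4, a bZIP factor that limits meristem size, had risen by 0.79 and 0.97 (adjusted p = 0.00434 and 0.0176). The KNOX genes SvKn1 and SvRs1, which maintain meristem cells, had log2 fold changes of 0.04 (SE 0.15) and 0.12 (SE 0.15) at 15 against 14 DAS and were not called. SvCuc2 had 112 to 141 CPM at 14 DAS and 61.7 to 157 CPM at 15 DAS, the wider spread lying with 15 DAS, and was not called (adjusted p = 0.306), although without replicate 2 of 15 DAS it was (log2 fold change -0.51, adjusted p = 0.0291). SvBrm, a further SWI/SNF ATPase, was not called at 15 DAS (log2 fold change 0.13, adjusted p = 0.422) and rose by 0.54 to 16 DAS (adjusted p = 0.00531). SvSpi1, an auxin synthesis enzyme, SvFea4 and the CLE peptide gene SvFon2 had log2 fold changes of -0.31, -0.10 and -0.12, none of them called. Without both shallow libraries of 15 DAS, SvSpi1 (-0.70, adjusted p = 0.0138), SvFea4 (-0.59, adjusted p = 0.0299) and SvCuc2 (-0.84, adjusted p = 8.26e-04) were called lower.

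**Figure D4:**
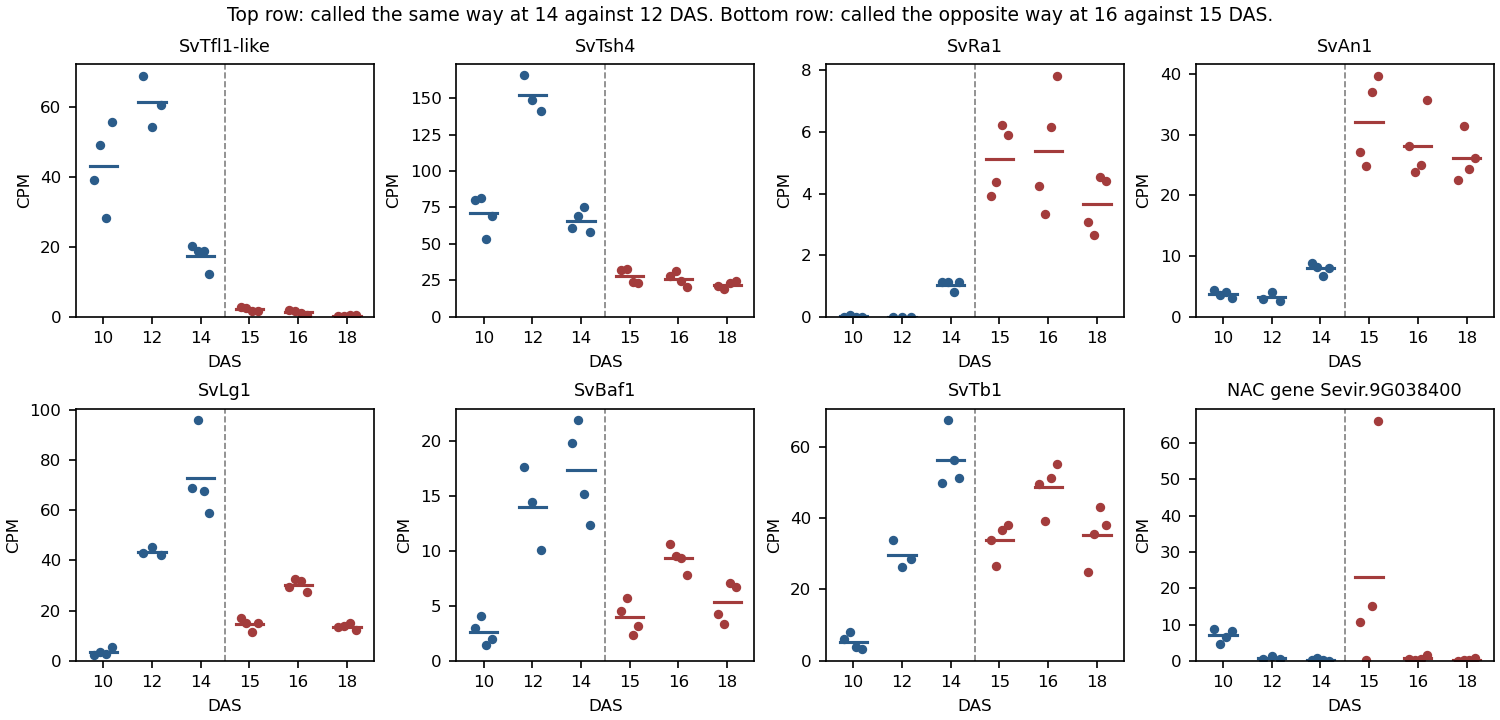
CPM in each library (points) and stage means (lines) against DAS for 8 genes, blue for the paired-end and red for the single-end run, with a dashed line at the change of run and each y axis starting at 0. In the top row the change at 15 DAS had begun within the paired-end run (SvTsh4: 152, 65.8 and 27.7 CPM at 12, 14 and 15 DAS), and in the bottom row the level turned back at 16 DAS (SvLg1: 72.8, 14.7 and 30.3 CPM at 14, 15 and 16 DAS).

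Regulators of floral organ development were divided between rises and no called difference. Of 14 tested, 7 were higher at 15 DAS, 1 was lower and 6 were not called, with a median log2 difference of 1.28, and 2 of the 7 rises had a counterpart within a run. Over all genes tested 29.4% were higher and 27% lower. The study described the expression group that holds these genes as rising after 14 DAS in these same libraries. Their rises thus follow in part from how the list was made. SvLhs1 (Sevir.9G494300), a SEPALLATA-like MADS-box gene related to rice LEAFY HULL STERILE1, rose most. It had 0.501, 0.321, 0.186 and 0.227 CPM at 14 DAS and 12.5, 12.8, 18.9 and 14.2 CPM at 15 DAS, so that the 2 stages did not come near each other (log2 fold change 5.53, SE 0.27, adjusted p = 5.84e-12). It was not called from 12 to 14 DAS (adjusted p = 0.223) or from 15 to 16 DAS (log2 fold change -0.10, adjusted p = 0.689), and so its rise at 15 DAS is not claimed as developmental, although its mean was 121 ± 22.2 CPM (SD, n = 4) at 18 DAS. SvAn1 (Sevir.9G265300), related to maize anther ear1, an enzyme of gibberellin synthesis, had 8.91, 8.24, 6.70 and 7.94 CPM at 14 DAS and 27.1, 24.9, 37.1 and 39.8 CPM at 15 DAS. The groups did not overlap, and the log2 fold change of 2.03 (SE 0.17, adjusted p = 8.77e-09) followed a rise of 1.31 (SE 0.21, adjusted p = 4.16e-04) from 12 to 14 DAS. SvBde1, an AGL6-like MADS-box gene related to maize bearded-ear, had 1.18 to 2.94 CPM at 14 DAS and 4.64 to 7.35 CPM at 15 DAS (log2 fold change 1.62, SE 0.28, adjusted p = 4.48e-05). Its rise from 12 to 14 DAS (1.64, adjusted p = 0.0163) was lost without replicates 1, 2 or 4 of 12 DAS or replicate 2 of 14 DAS, with an adjusted p of up to 0.0757, while the paired fit of 15 and 16 DAS called a further rise (0.41, adjusted p = 0.0381).

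Other called floral genes were at low levels at both stages. The SEPALLATA-like homologs of OsMADS7 and OsMADS8 had means of 0.351 and 1.43 CPM at 14 DAS and 1.90 and 2.73 CPM at 15 DAS, with log2 fold changes of 2.41 and 0.94 (adjusted p = 4.38e-05 and 0.00137), and the first of these fell again by 1.18 to 16 DAS (adjusted p = 0.0223). The AGL6-like homolog of OsMADS17 had 3 counts over the 4 libraries of 14 DAS and 35 at 15 DAS, a ratio of 16.8 with a 95% counting interval of 5.29 to 85.3. SvSi1, the B-class MADS-box gene that specifies lodicules and stamens, had 2 counts at 14 DAS and 27 at 15 DAS, a ratio of 19.4 (95% counting interval 4.88 to 169). Most of them came from replicate 4, with 1.37 CPM against 0.106 to 0.299 CPM in the other libraries of 15 DAS, and without that replicate its call was lost (adjusted p = 0.0717). SvSl1, related to the rice zinc finger gene STAMENLESS1, was the only lower gene, with 2.78 to 3.97 CPM at 14 DAS and 1.65 to 2.56 CPM at 15 DAS (log2 fold change -0.68, SE 0.26, adjusted p = 0.0294). The fall was lost without replicates 1 or 3 of 14 DAS or replicates 3 or 4 of 15 DAS (adjusted p 0.0527 to 0.101), and the fall from 12 to 14 DAS (adjusted p = 0.0444) was lost in 12 of 15 such runs and held only without replicate 2 of 12 DAS or replicates 2 or 4 of 15 DAS. The 6 floral genes that were not called were SvMADS4 of the B class, the C-class homologs of OsMADS3 and OsMADS58, SvTga1, SvTob1 and SvTs2. Their log2 fold changes in that order were -0.34, 1.75, -0.04, 0.30, -0.29 and -0.36. The OsMADS3 homolog (adjusted p = 0.0578) was called over all libraries with DESeq2 (1.80, adjusted p = 0.0224), with scaling by library size (1.84, adjusted p = 0.0439) and with the replicate block (1.84, adjusted p = 0.0476). It was also called without replicate 1 of 14 DAS (3.14, adjusted p = 0.00815), replicate 2 of 15 DAS (2.04, adjusted p = 0.0191) or both shallow libraries of 15 DAS (2.1, adjusted p = 0.0269). SvTga1 was called with scaling by library size (adjusted p = 0.0118) and among genes with at least 10 counts throughout (adjusted p = 0.0346), without replicate 4 of 12 DAS (adjusted p = 0.0441) or replicate 2 of 14 DAS (adjusted p = 0.0013). It rose from 15 to 16 DAS (0.53, adjusted p = 0.00419), and in these settings it moved the same way within a run. SvTs2 was called without replicate 2 of 15 DAS (adjusted p = 0.0476) or without both shallow libraries of 15 DAS (-0.64, adjusted p = 0.0224).

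Over the 9 transcription factor sheets of the study 424 of 468 listed genes were tested, 161 were higher at 15 DAS, 97 were lower, and 47 moved the same way within a run (11.1%). Over all genes tested 29.4% were higher, 27% were lower and 2.42% moved the same way, with a median log2 difference of 0.03, and the family counts are set beside these shares. The study states that all its analyses used genes that changed more than 2-fold between stages of these same libraries. Shares above those of all genes are therefore no independent result. NAC and bZIP genes leaned to higher levels: 23 of 49 NAC genes were higher and 6 lower (median log2 difference 0.70), and 28 of 53 bZIP genes were higher and 8 lower (median 0.50). Of these, 3 of the 23 higher NAC genes and none of the lower ones moved the same way within a run, as did 3 of the 28 higher and 3 of the 8 lower bZIP genes. MADS-box genes were higher for 15 of 29 and lower for 5 (median 0.47), with 4 and 2 moving the same way. TCP genes leaned to lower levels, with 4 of 18 higher and 8 lower (median -0.26) and 2 and 1 moving the same way. AP2/ERF genes were higher for 30 and lower for 21 of 89, bHLH genes for 25 and 21 of 88, C2H2 genes for 21 and 19 of 65, SBP genes for 5 and 4 of 14 and LOB genes for 5 and 4 of 11, and the medians of these 5 families were -0.01 to 0.12. The members that moved the same way were 3 higher and 7 lower in bHLH, 4 and 4 in AP2/ERF, 1 and 5 in C2H2, 1 and 1 in SBP and 0 and 2 in LOB. The sheet of TCP genes also lists 8 genes without a TCP domain, of which 5 were higher and 1 lower.

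The factors with the largest rises among those that moved the same way within a run were 2 NAC genes, SvRa1, an AP2/B3-like gene and SvBde1. The NAC gene Sevir.7G175600 had 7.85, 1.23, 2.3 and 1.65 CPM at 14 DAS and 30.8, 24.2, 38.2 and 22.9 CPM at 15 DAS. Replicate 1 of 14 DAS stood above its fellows but below every library of 15 DAS, and the log2 fold change was 3.16 (SE 0.41, adjusted p = 1.84e-06) after 2.86 (adjusted p = 0.0138) from 12 to 14 DAS. The NAC gene Sevir.1G244100 had 0.681 to 1.00 CPM at 14 DAS and 4.64 to 14.6 CPM at 15 DAS (log2 fold change 3.66, SE 0.39, adjusted p = 1.68e-07). The rises of both from 12 to 14 DAS were lost without replicates 1 or 2 of 12 DAS, and that of Sevir.7G175600 also without replicate 1 of 14 DAS, with adjusted p up to 0.0729 for Sevir.7G175600 and 0.107 for Sevir.1G244100. The AP2/B3-like gene Sevir.8G036200 had 5.12, 5.19, 4.28 and 6.35 CPM at 14 DAS and 16.1, 17.1, 18.6 and 19.3 CPM at 15 DAS. These tight groups gave a log2 fold change of 1.76 (SE 0.19, adjusted p = 1.28e-07), after 2.17 (adjusted p = 1.41e-05) from 12 to 14 DAS, a call that held without each library in turn (adjusted p up to 2.92e-04). The paired fit of 15 and 16 DAS called a further rise of Sevir.8G036200 (0.41, adjusted p = 0.00914) and a fall of Sevir.1G244100 (-0.51, adjusted p = 0.0211).

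The largest falls of this kind were in an AINTEGUMENTA-like gene, 3 C2H2 genes and SvLg2. AINTEGUMENTA-like factors of the AP2 family promote growth of young organs and meristems. The AIL5-like gene Sevir.9G525300 had 17.7, 17.2, 12 and 17.8 CPM at 14 DAS and 4.66, 5.86, 4 and 3.3 CPM at 15 DAS. The groups did not overlap, and the log2 fold change was -1.89 (SE 0.18, adjusted p = 3.26e-08) after -0.78 (adjusted p = 0.00641) from 12 to 14 DAS. The NUTCRACKER-like gene Sevir.2G314300 was called lower in all 3 steps, from 47.9 to 24, 7.53 and 3.12 CPM on average at 12, 14, 15 and 16 DAS. Its log2 fold changes in order were -1.0, -1.69 (SE 0.24, adjusted p = 5.33e-06) and -1.24, and the last was called without each library in turn (adjusted p up to 0.0117), while that from 12 to 14 DAS was lost without replicates 2 or 4 of 12 DAS (adjusted p up to 0.0596). The ID-domain gene Sevir.7G212900 and the zinc finger gene Sevir.2G262600 fell by 1.38 and 1.31 on the log2 scale at 15 DAS (adjusted p = 2.62e-07 and 3.83e-05). Their smaller falls from 12 to 14 DAS were lost without any library of 12 or 14 DAS, and with the replicate block (adjusted p = 0.0674), for the former and without replicate 1 of 12 DAS for the latter (adjusted p up to 0.144 and 0.0725).

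The largest rises without support within a run were uneven within 15 DAS. Of 8 genes named for such rises, 7 had their lowest level of 15 DAS in replicate 2 and their highest in replicate 4, and 5 were called lower again at 16 DAS. The NAC gene Sevir.9G038400 had 0.223, 0.909, 0.186 and 0.0567 CPM at 14 DAS and 10.8, 0.244, 15.2 and 66.2 CPM at 15 DAS. Replicate 2 of 15 DAS thus lay within the range of 14 DAS, the log2 fold change of 6.03 had a standard error of 0.90 (adjusted p = 8.98e-06), and the mean at 16 DAS was 0.692 ± 0.635 CPM (SD, n = 4). An auxin-repressed protein gene (Sevir.5G112300) had 0.321 to 0.621 CPM at 14 DAS and 13.4, 2.08, 17.9 and 70.8 CPM at 15 DAS (log2 fold change 5.84, SE 0.85, adjusted p = 6.51e-06), and 4.19 ± 3.18 CPM (SD, n = 4) at 16 DAS. A gene similar to SDIR1 (Sevir.6G029200), a ubiquitin ligase of abscisic acid signalling in Arabidopsis, had 0.397 to 0.501 CPM at 14 DAS and 14.5, 1.34, 30.6 and 62.7 CPM at 15 DAS (log2 fold change 5.95, SE 0.76, adjusted p = 1.20e-06). A kelch-repeat gene (Sevir.4G238100) had 2 counts over the 4 libraries of 14 DAS and 309 at 15 DAS, none of them in replicate 2, a ratio of 222 with a 95% counting interval of 61 to 1843.

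A pair of NAC25-like genes showed the same order of libraries and were called lower at 16 than at 15 DAS in the paired fit of 15 and 16 DAS but not in the fit of all libraries, by -0.91 (adjusted p = 0.00103) for Sevir.8G007500 and -1.25 (adjusted p = 3.51e-04) for Sevir.7G317200. Sevir.8G007500 had 0.681 to 1.78 CPM at 14 DAS and 28.5, 8.54, 70.9 and 91.5 CPM at 15 DAS (log2 fold change 5.56, SE 0.67, adjusted p = 6.05e-07). Sevir.7G317200 had 0.624 to 3.05 CPM at 14 DAS and 35.1, 3.78, 83.1 and 127 CPM at 15 DAS (5.28, SE 0.79, adjusted p = 9.20e-06). Over all 2486 genes called over 2-fold higher, replicate 2 was the lowest library of 15 DAS for 58.2% and replicate 4 the highest for 51.3%. Over the 286 higher genes that moved the same way within a run, replicate 2 was the lowest for 52.1% and replicate 4 the highest for 35.7%. Of those named, SvAn1, Sevir.1G244100, Sevir.1G030000, Sevir.1G246600 and SvBde1 show the order with replicate 2 lowest and replicate 4 highest. Over the 944 genes called over 2-fold lower, replicate 2 was the highest library of 15 DAS for 54% and replicate 3 the lowest for 50.7%. The part of these libraries in single changes was not tested beyond leaving them out, and without replicates 1 and 2 of 15 DAS together 2917 genes were over 2-fold higher and 1780 lower.

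The largest falls without support included SvLg1, SvBaf1, an NPGR1-like gene, a homeobox gene and an ERF gene. The NPGR1-like gene Sevir.1G095200 had 20.9, 22, 40.8 and 28.5 CPM at 14 DAS and 4.88, 5.98, 3.4 and 5.91 CPM at 15 DAS (log2 fold change -2.50, SE 0.26, adjusted p = 1.24e-07). It kept about this level at 16 DAS, with 6.02 ± 1.46 CPM (SD, n = 4), and had shown no difference from 12 to 14 DAS (log2 fold change 0.01, adjusted p = 0.994). The HOX3-like homeobox-leucine zipper gene Sevir.5G249600 had the same course, with 72.4, 69.9, 15.5 and 18.5 CPM on average at 12, 14, 15 and 16 DAS (log2 fold change -2.20 at 15 DAS, SE 0.22, adjusted p = 7.57e-08). The ERF071-like gene Sevir.5G020600 had 27.6 to 35.9 CPM at 14 DAS and 4.19 to 11 CPM at 15 DAS (log2 fold change -2.14, SE 0.23, adjusted p = 1.25e-07). None of these 3 genes was called at 14 against 12 or 16 against 15 DAS, except that the paired fit of 15 and 16 DAS called Sevir.5G020600 higher (0.55, adjusted p = 0.0231). The bZIP gene Sevir.1G095700, similar to a G-box binding factor, fell by 1.75 (adjusted p = 3.96e-06) and rose by 0.77 (adjusted p = 0.0256) to 16 DAS.

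Genes of auxin biology moved in both directions. Of 29 tested on the auxin sheet of the study, 12 were higher at 15 DAS and 11 lower, against 29.4% and 27% of all genes, and 5 moved the same way within a run (17.2%, against 2.42%). The sheet holds only auxin genes of the expression groups that changed around branching and spikelet formation in these same libraries. These shares are therefore no independent result. The classes below hold at most 9 genes each. Synthesis and metabolism genes were lower for 4 of 7 and higher for 1 (median log2 difference -0.82). They included the GH3.8-like conjugases Sevir.9G364900 and Sevir.2G386500, which remove active auxin by joining it to amino acids. Sevir.9G364900 had 131, 76.7, 96.4 and 72.1 CPM at 14 DAS and 40.7, 48.7, 18.2 and 25 CPM at 15 DAS (log2 fold change -1.53, SE 0.29, adjusted p = 1.34e-04), and Sevir.2G386500 had 140, 73.1, 101 and 77.6 CPM and 31.5, 48.1, 15.7 and 14.8 CPM (-1.86, SE 0.33, adjusted p = 6.20e-05). In both genes the order of the 14 DAS libraries was nearly the same, and as near relatives they may share reads that the quantification divides between them. Neither was called within a run, but in the paired fit of 15 and 16 DAS Sevir.2G386500 rose again as well (0.85, adjusted p = 0.00327). Transport genes were higher for 2 and lower for 2 of 6, and signaling genes higher for 4 and lower for 4 of 9, with 3 of the higher signaling genes moving the same way. Response genes were higher for 5 of 7 and lower for 1 (median 1.63), and none of them moved the same way.

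Over all genes with a description, the rule for large changes that moved the same way added 2 rises to those already given. A gene for a membrane protein with a DUF588 domain (Sevir.1G030000), a domain of Casparian strip membrane protein relatives, had 2.79, 2.73, 2.98 and 2.72 CPM at 14 DAS and 12.7, 11, 21.1 and 21.4 CPM at 15 DAS. These groups did not overlap (log2 fold change 2.58, SE 0.23, adjusted p = 1.49e-08), and the gene had risen by 2.79 from 12 to 14 DAS (adjusted p = 4.56e-05) and fell by 0.84 to 16 DAS (adjusted p = 0.00484). The DUF584 gene Sevir.1G246600 had 5.03 to 10.5 CPM at 14 DAS and 23.7, 5.49, 40.3 and 57.4 CPM at 15 DAS, overlapping in replicate 2 (log2 fold change 2.07, SE 0.51, adjusted p = 0.00154). Its rise from 12 to 14 DAS (adjusted p = 0.0148) was lost without any of the 3 libraries of 12 DAS (adjusted p up to 0.0813), and it fell by 1.53 to 16 DAS (adjusted p = 0.0259). Smaller classes taken from the part of the annotation at hand held no gene that moved the same way, and the first pair had shares near the 29.4% higher and 27% lower of all genes: 5 of 23 splicing and RNA-binding genes were higher and 6 lower, 3 of 12 pentatricopeptide repeat genes were higher and 4 lower, and 3 of 4 cytosolic ribosomal protein genes were lower (median -0.82). Of the cell wall enzymes 3 of 4 tested were higher, of the heat shock factors and chaperones 1 of 5 was higher and 3 were lower, and of the peroxidases and cytochromes P450 1 of 6 was higher and 2 were lower.

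In all, 22 genes named here moved the same way within a run, and 11 of them did so under every alternative that gives these steps. They were SvTfl1-like, SvTaw1, SvTaw1-like-2, the OsMADS22 homolog, SvTsh4, SvRa1, SvAn1, Sevir.8G036200, Sevir.9G525300, Sevir.2G314300 and Sevir.1G030000. The size of their change between 14 and 15 DAS still includes whatever the change of run adds, which cannot be told apart from stage.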

How the data were processed

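PolyA RNA of pooled inflorescence primordia was sequenced at 6 stages. The authors ran Salmon (version 0.8.1) on the primary transcript set of S. viridis (v1.1) summarised with tximport, and deposited estimated counts per gene (expected counts, 8.76% of values not whole), which were rounded here. No further columns were set aside. Libraries were grouped by stage labels. Replicates are separate pools, and no pair of libraries of a stage agreed within counting noise (chi-square per degree of freedom 3.68 to 44.9). A quasi-likelihood model with a mean for each stage was fitted to all 23 libraries (edgeR 4.0.16, R 4.3.3, TMM factors, filterByExpr), after tests on simulated data, and standard errors were taken from the F statistic. The study states no such test. A gene moved the same way within a run if it was also called, in the same direction, at 14 against 12 or 16 against 15 DAS.

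Genes are named by rule: the 54 regulators, and, for each direction, the 5 transcription factor or auxin genes, and the 5 of 2375 tested genes with a description, with the largest called changes that did, and that did not, move the same way, with at least 5 CPM in the higher stage. The comparison, lists and rule were chosen with earlier results of these data known. Alternatives were DESeq2 (version 1.42.0), no TMM factors, 2 other filters, a fit of the 8 libraries alone, a replicate block, thinning, and leaving out libraries. Same-numbered libraries of 14 and 15 DAS did not deviate from their stage means together (correlations -0.348 to 0.078). Those of 15 and 16 DAS did (0.137 to 0.649). The main fit, which gave all calls not marked otherwise, paired no libraries. The replicate block added a term for replicate number over all stages. The paired fit, chosen after seeing the data, covered 15 and 16 DAS alone. Replicate 3 of 15 DAS was not closest to its own number at 16 DAS, and no label states a pairing. The locus names were not matched to a genome here, and no sequence or position is given.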

Additional observations from a re-analysis of the deposited data

Results flagged for a closer look

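In 168 groups of 4 libraries (each named gene and 4 library properties at 14 and 15 DAS), 9 held a library far from its fellows by Dixon's criterion, which marks about 1 in 20 groups by chance. At 14 DAS these were SvRa1 in replicate 3 (0.807 CPM, others 1.11 to 1.13 CPM), SvSi1 in replicate 4 (0.113 CPM, others 0), the OsMADS17 homolog in replicate 3 (0 CPM, others 0.0535 to 0.0567 CPM), the OsMADS7 homolog in replicate 1 (0.836 CPM, others 0.170 to 0.214 CPM), SvTga1 in replicate 2 (30.4 CPM, others 19.2 to 20.9 CPM), Sevir.7G175600 in replicate 1 (7.85 CPM, others 1.23 to 2.3 CPM) and Sevir.9G525300 in replicate 3 (12 CPM, others 17.2 to 17.8 CPM). At 15 DAS they were SvDfl1 in replicate 2 (38.6 CPM, others 61.8 to 64.8 CPM) and SvSi1 in replicate 4 (1.37 CPM, others 0.106 to 0.299 CPM). By the edgeR test SvTga1 was not called (0.30 on the log2 scale, adjusted p = 0.0543) but was when that library of 14 DAS was left out (0.47, adjusted p = 0.0013).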

How the results depend on the processing

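The number of genes called at 15 against 14 DAS (11938) was 10178 to 12248 over the alternatives, and with each of 15 libraries left out in turn it was 10391 to 12206, the genes over 2-fold (3430) were 2896 to 3939 and the genes that moved the same way (513) were 359 to 596. Requiring 10 counts of a gene in each library left 1817 genes over 2-fold, among fewer genes tested (17080). Support in both steps within a run gave 30 genes, and support from 10 to 12 or 16 to 18 DAS gave 3032. Scaling by library size alone moved the median of all genes from 0.03 to 0.13 and gave 61.9% of calls as higher against 52.1%, and 80.4% against 72.5% over 2-fold. A replicate block gave 11822 called genes, 3431 over 2-fold and 469 moving the same way. Blocking the 15 and 16 DAS libraries alone, an alternative chosen after seeing the data, gave 7106 called genes at 16 against 15 DAS against 6062, and 604 moving the same way. Genes moving the same way under every alternative that gives these steps numbered 109. The rises of SvVt2, SvPla1 and SvTb1 to 16 DAS were lost with scaling by library size (adjusted p = 0.111, 0.051 and 0.0926). Some named genes moved the same way within a run only in alternatives. They were Sevir.8G007500 under DESeq2 and SvTsh1 under library-size scaling or without replicate 4 of 15 DAS. Sevir.1G095700 did so without both shallow libraries of 15 DAS. SvTga1 did so under library-size scaling, with at least 10 counts in each library, and without replicate 4 of 12 DAS or replicate 2 of 14 DAS.

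None of the called named genes changed sign, and 5 of them lost the call in at least 1 alternative: SvTfl1, SvUb3, SvSi1, SvSl1 and the Rubisco small subunit marker. Genes that were never called changed sign near 0: the OsMADS47 homolog (0.0427 by library size, 0.0267 without both shallow 15 DAS libraries, -0.215 to 0.0397 with 1 library left out), the OsMADS58 homolog (0.0665 by library size, 0.035 with the replicate block, -0.269 to 0.336), SvRs1 (-0.00212 to 0.22), SvKn1 (-0.0346 to 0.125), Sevir.1G020600 (-0.0416 to 0.179) and Sevir.1G101700 (-0.0438 to 0.217). The OsMADS55 homolog was at -0.0848 and SvFea4, which was called only there, at -0.586 without both shallow libraries, and SvFea4 at 0.00742 by library size and at -0.25 to 0.0959 with 1 library left out. Depth limits genes under about 1 CPM, where intervals cover counting error only.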
